A study of Mus musculus with 27 samples.

Results

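Bone marrow-derived macrophages (BMDM) from mice were given 24(S)-saringosterol, a sterol of plants and algae, or a synthetic compound, and their polyadenylated RNA was compared gene by gene. The comparison rests on 6 of the 27 libraries of the series, 3 of saringosterol BMDM and 3 of GW BMDM, chosen by their labels alone, and 3 vehicle BMDM libraries served as a common baseline. The synthetic compound, written as GW3596, GW3964 or GW3965 by the submitters, is referred to as GW. GW3965 is a laboratory compound that activates the liver X receptors (LXR).

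Saringosterol BMDM received 10 µM of the sterol, GW BMDM received 1 µM of GW, and vehicle BMDM received the same volume of ethanol. All were differentiated for 6 days with the growth factor M-CSF and then kept for 24 h in serum-free medium that held M-CSF, insulin, transferrin, selenite and fatty-acid-free albumin. No genotype, strain or age is given for these cells in the labels. Because each compound was used at a single dose and the doses differ, compound and dose cannot be told apart in any value below. Nothing in the labels tells whether replicates of a group were separate animals or separate cultures, so the p-values measure the spread between these libraries, which may be technical.

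LXR are nuclear receptors that bind oxidised sterols and switch on genes that export cholesterol from macrophages. One of their targets is Srebf1, which encodes the sterol regulatory element-binding protein (SREBP) that drives fatty acid synthesis. The related protein encoded by Srebf2 is held back by the INSIG proteins when sterols are plentiful, and otherwise switches on genes of cholesterol synthesis and uptake.

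The promoters of 4 genes are shown because they hold a known LXR or sterol element close to the start and their genes head the lipid groups described below. They are RefSeq sequences on GRCm38.p6, on the coding strand, from 250 bases before to 50 bases after the start, with the matched element in capitals. The LXR element searched was GGTNA and GGTCA in the same direction with 5 further bases between them, on either strand, which 68 of 32851 promoters held (0.21%). It was found in Abca1 (chr4:53159846-53160145, minus strand), Srebf1 (chr11:60210422-60210721, minus strand, inside the gene span of the files) and Fasn (chr11:120824498-120824797, minus strand), in each case as its reverse complement. The sterol regulatory element searched was TCAC and CCAC with 1 base between them, on either strand, held by 408 promoters (1.24%), and among cholesterol synthesis genes it was found in 1 of 18 promoters, that of Hmgcs1 (chr13:119690101-119690400, plus strand).
Abca1: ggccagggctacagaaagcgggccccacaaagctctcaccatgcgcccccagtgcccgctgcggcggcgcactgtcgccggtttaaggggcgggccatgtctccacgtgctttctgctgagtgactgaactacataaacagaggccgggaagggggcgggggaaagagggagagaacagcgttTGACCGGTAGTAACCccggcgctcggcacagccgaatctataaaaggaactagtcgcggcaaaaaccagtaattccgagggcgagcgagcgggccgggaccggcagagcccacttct
Srebf1: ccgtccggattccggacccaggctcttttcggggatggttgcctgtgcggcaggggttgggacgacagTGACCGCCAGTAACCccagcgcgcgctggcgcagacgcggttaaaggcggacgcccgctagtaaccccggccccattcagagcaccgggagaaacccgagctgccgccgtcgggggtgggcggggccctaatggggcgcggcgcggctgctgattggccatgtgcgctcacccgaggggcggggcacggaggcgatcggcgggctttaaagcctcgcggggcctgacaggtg
Fasn: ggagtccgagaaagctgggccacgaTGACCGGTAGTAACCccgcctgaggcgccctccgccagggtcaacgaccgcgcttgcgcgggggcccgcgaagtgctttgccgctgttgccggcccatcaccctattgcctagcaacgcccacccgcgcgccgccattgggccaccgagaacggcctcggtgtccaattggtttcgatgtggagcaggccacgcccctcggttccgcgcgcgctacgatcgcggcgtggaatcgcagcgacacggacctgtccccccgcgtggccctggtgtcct
Hmgcs1: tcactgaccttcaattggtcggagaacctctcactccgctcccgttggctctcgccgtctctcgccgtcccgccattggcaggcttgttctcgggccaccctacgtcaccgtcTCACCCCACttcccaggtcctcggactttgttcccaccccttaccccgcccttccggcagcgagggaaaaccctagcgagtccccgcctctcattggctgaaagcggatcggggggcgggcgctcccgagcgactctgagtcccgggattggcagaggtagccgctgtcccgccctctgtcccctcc
A match describes letters in this window and shows neither binding nor a cause.

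The deposited counts per library summed to 32203386 to 40878942 in saringosterol BMDM, 38958160 to 40145793 in GW BMDM and 33780479 to 38271946 in vehicle BMDM. A count of 0 allows up to 3 counts, or 0.0734 to 0.0932 CPM (counts scaled to a common library size), and this floor covers counting error only. The cells carried the macrophage markers of their label. The 10 markers summed to 20705 to 22591 CPM in saringosterol BMDM, 26501 to 28486 CPM in GW BMDM and 26729 to 28477 CPM in vehicle BMDM, and Lyz2 (lysozyme) made up most of that difference, at 15479 to 16374 CPM with saringosterol and 21227 to 22996 CPM with GW. All 4 hepatocyte markers were at 0 in the 6 compared libraries, and fibroblast markers summed to at most 0.566 CPM with saringosterol and 0.835 CPM with GW.

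One library stood apart. Saringosterol replicate 3 lay at -44.4 on the second principal component (19.7% of the variance), against -12.1 and -17.8 for saringosterol replicates 1 and 2, 15.7 to 19.1 for GW BMDM and 3.3 to 13.3 for vehicle BMDM. Its counts differed from those of replicates 1 and 2 by 37.43 and 36.03 in chi-square per degree of freedom. Replicate pairs of BMDM otherwise ranged from 6.47 to 12.64. Results are therefore given with all libraries. Values without saringosterol replicate 3 are added for many of the counts and genes that depend on it, though not for all.

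Of 15416 genes tested, 1438 were called at an edgeR adjusted p under 0.05 between saringosterol and GW (9.33%), with 705 higher in saringosterol BMDM (4.57%) and 733 lower (4.75%). By size, 55 of the higher genes and 102 of the lower genes differed by at least 1.00 on the log2 scale. Without saringosterol replicate 3, 1409 genes were called (9.14%), 635 higher (4.12%) and 774 lower (5.02%), and 1106 genes were called both with and without it, all of them with the same sign. Leaving out GW replicate 3 reduced the calls most, to 403 higher and 500 lower, and without GW replicate 1, 468 genes were called higher. DESeq2 called 1779 genes (11.5%), 860 higher (5.58%) and 919 lower (5.96%). The median log2 difference over all genes tested was 0.00. The gene lists below were chosen with earlier results of these data known, so these shares give no independent test of a list.

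**Figure D1:**
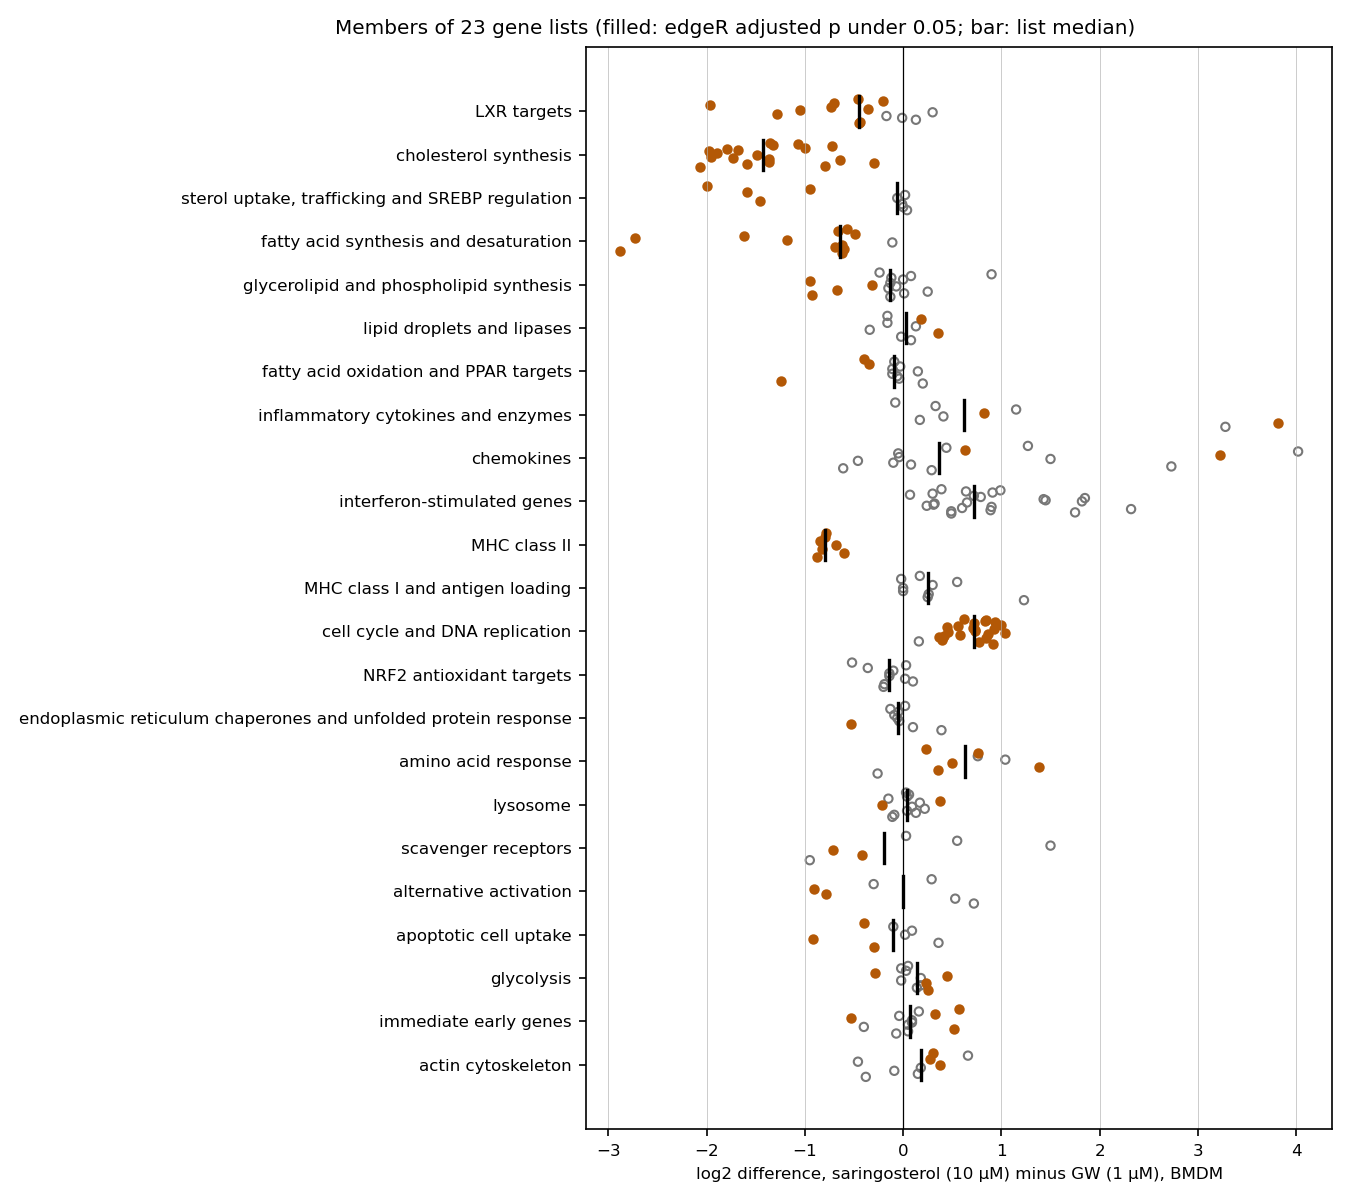
Log2 difference (saringosterol 10 µM minus GW 1 µM, horizontal axis) of every tested member of 23 gene lists in BMDM, with filled points for genes at an edgeR adjusted p under 0.05 and a bar at each list's median. All 20 cholesterol synthesis genes lie left of 0 and all 24 cell cycle genes right of it, while no interferon-stimulated gene is filled.

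LXR targets stood lower with saringosterol than with GW, though still above vehicle. Of 14 tested members (of 15 listed), 10 were lower in saringosterol BMDM (4.75% of all genes) and none was higher (4.57%). The median log2 difference was -0.45. Each compound was also set against vehicle, where 12 of the 14 were higher with saringosterol (5.53% of all genes) and 11 with GW (5.66% of all genes), with medians of 0.78 and 1.20. Over all genes, 1643 were called between saringosterol and vehicle (10.7%) and 1606 between GW and vehicle (10.4%). The groups share 1 estimate of the spread, and without saringosterol replicate 3 the call between GW and vehicle covered 2509 genes, of which 1242 were higher with GW. These comparisons share the vehicle libraries. The summed level of the list was 31683 to 35066 CPM in saringosterol BMDM, 45439 to 48795 CPM in GW BMDM and 25042 to 26244 CPM in vehicle BMDM.

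Among the exporters and their carriers, Abca1 moves cholesterol onto apolipoproteins (ENSMUSG00000015243; chromosome 4, 53030787 to 53159895). It stood at 1579, 1637 and 1504 CPM in saringosterol BMDM, 2051, 2092 and 2368 CPM in GW BMDM and 493, 562 and 591 CPM in vehicle BMDM. The 3 groups did not overlap, and the log2 difference between saringosterol and GW was -0.46 ± 0.07 (SE, as after every log2 value here; edgeR adjusted p = 0.00025). Abcg1, which loads cholesterol onto mature lipoproteins, averaged 744 ± 33.4 CPM with saringosterol and 855 ± 29 CPM with GW (SD, n = 3 each), against 388 ± 10.6 CPM with vehicle (log2 difference -0.20 ± 0.05, edgeR adjusted p = 0.024). That call was lost without GW replicate 1 or GW replicate 3 (-0.19 in both cases) and without saringosterol replicate 2 (-0.17). Apoe, the lipoprotein ligand that macrophages secrete, stood at 20051, 21062 and 18298 CPM with saringosterol, 30903, 32007 and 33537 CPM with GW and 14666 to 15760 CPM with vehicle (log2 difference -0.70 ± 0.07, edgeR adjusted p = 1.4e-06).

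The smaller apolipoprotein Apoc1 averaged 2.04 ± 0.303 CPM with saringosterol, 7.97 ± 0.489 CPM with GW and 0.771 ± 0.0266 CPM with vehicle, the largest difference in the list (-1.97 ± 0.18, edgeR adjusted p = 8.9e-07). Pltp, which transfers phospholipid between lipoproteins, averaged 1152 CPM with saringosterol, 1912 CPM with GW and 551 CPM with vehicle. Genes further from cholesterol export differed too. Lpcat3, which builds polyunsaturated phospholipids, stood at 131, 135 and 139 CPM in saringosterol BMDM, 284, 268 and 283 CPM in GW BMDM and 85 to 105 CPM in vehicle BMDM (log2 difference -1.05 ± 0.07, edgeR adjusted p = 1.3e-08). Cd5l, a secreted macrophage protein, averaged 324 CPM with saringosterol, 441 CPM with GW and 102 CPM with vehicle, and the receptor tyrosine kinase gene Mertk, used in the uptake of dying cells, 249, 341 and 155 CPM in the same order of groups. Mylip, a ubiquitin ligase gene, averaged 142 CPM with saringosterol, 182 CPM with GW and 76.3 CPM with vehicle.

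4 genes of the list were not called. Lpl (lipoprotein lipase) averaged 8453 CPM with saringosterol and 8494 CPM with GW, Smpdl3a 466 and 425 CPM, and Arl4c 70.5 and 79.5 CPM. Nr1h3, which encodes LXR alpha itself, stood at 151, 153 and 111 CPM in saringosterol BMDM and at 118, 111 and 107 CPM in GW BMDM (log2 difference 0.30 ± 0.11, edgeR adjusted p = 0.13). Without saringosterol replicate 3 the gene was higher with saringosterol (0.44, edgeR adjusted p = 1.4e-05).

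**Figure D2:**
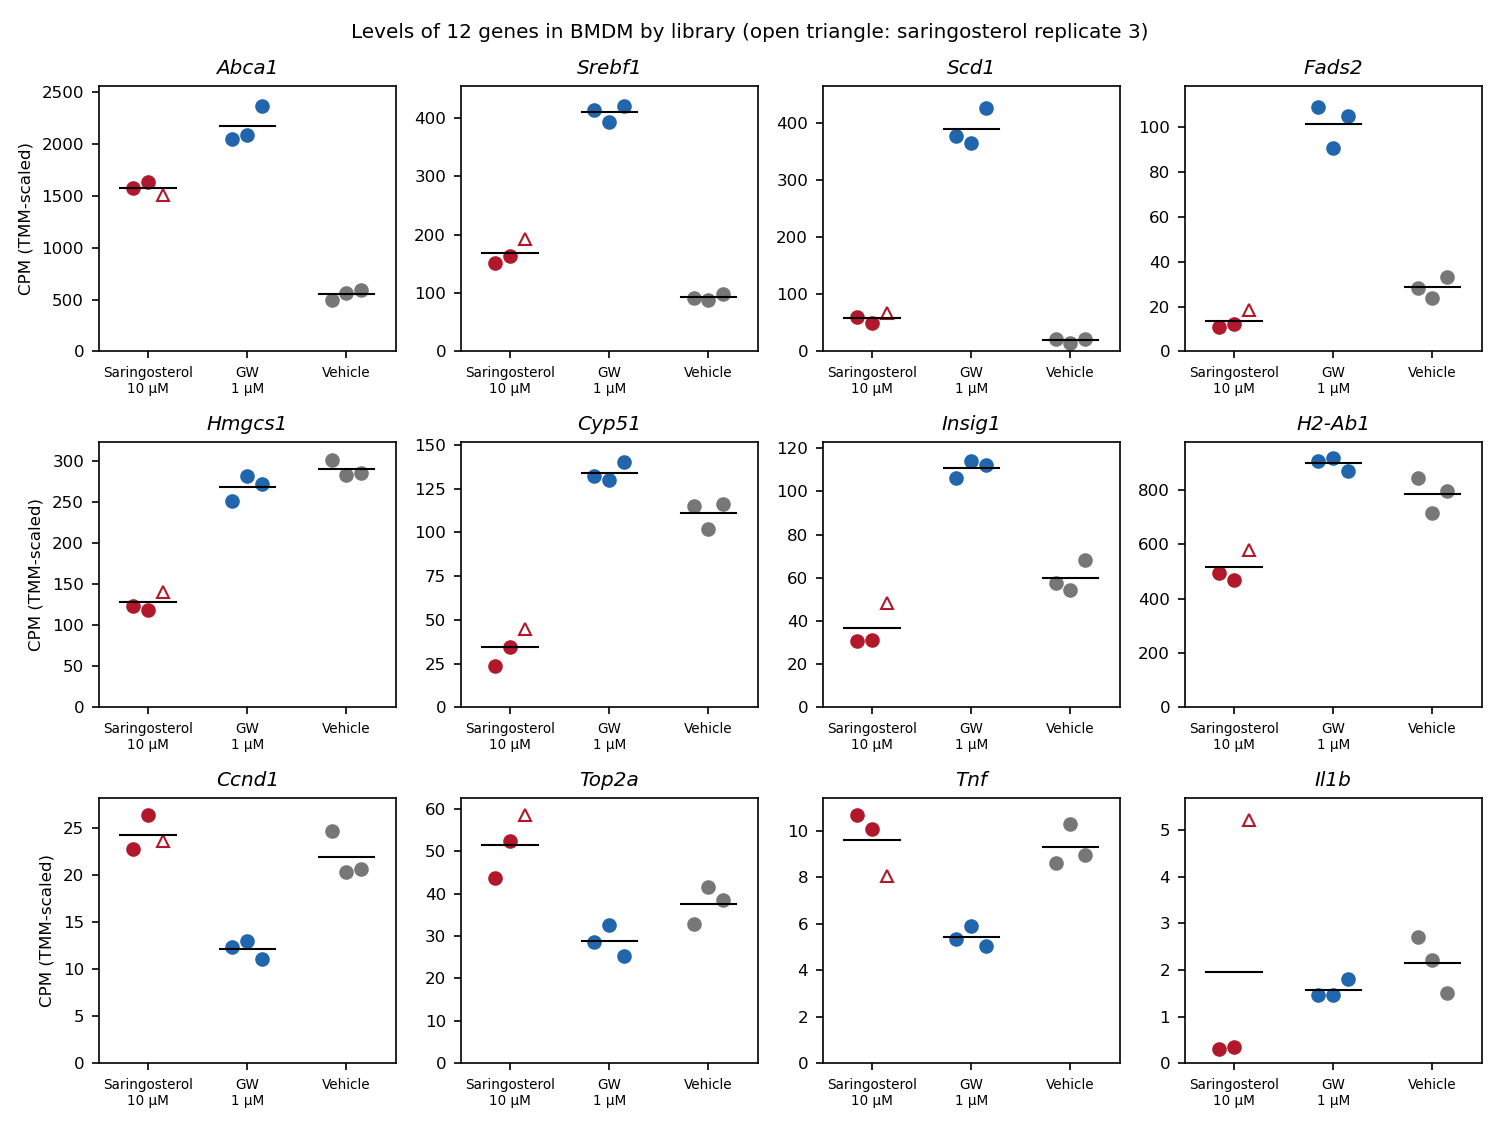
CPM on TMM-scaled library sizes (vertical axis, from 0) of 12 genes in each library of saringosterol BMDM, GW BMDM and vehicle BMDM, with a bar at each group's mean and an open triangle for saringosterol replicate 3. Abca1, Srebf1 and Scd1 stand highest with GW, Hmgcs1 and Cyp51 lowest with saringosterol, and Il1b is high in saringosterol replicate 3 at 5.22 CPM.

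Every gene of cholesterol synthesis was lower with saringosterol than with GW. All 20 members were tested and all 20 were called lower (4.75% of all genes), with a median log2 difference of -1.43. Without saringosterol replicate 3 the count was again 20 (5.02% of all genes) and the median -1.70. The 6 libraries of the compared groups did not overlap for any of the 20 genes, as was the case for 27.4% of all genes tested. Summed, the pathway stood at 503, 519 and 676 CPM in saringosterol BMDM, 1294, 1388 and 1390 CPM in GW BMDM and 1240, 1133 and 1216 CPM in vehicle BMDM. Set against vehicle, 19 of the 20 were lower with saringosterol (5.12% of all genes). With GW, by contrast, 5 were higher (5.66% of all genes) and none was lower (4.76%).

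The early steps build isoprene units from acetyl-CoA. Hmgcs1, the HMG-CoA synthase (ENSMUSG00000093930; chromosome 13, 119690379 to 119708260), stood at 124, 119 and 141 CPM with saringosterol, 252, 282 and 272 CPM with GW and 302, 283 and 286 CPM with vehicle. The saringosterol libraries lay below all others, at a log2 difference from GW of -1.07 ± 0.07 (edgeR adjusted p = 1.1e-08). Mvd, a decarboxylase of the mevalonate branch, averaged 14.6 CPM with saringosterol, 50.6 CPM with GW and 32.1 CPM with vehicle, and Idi1, the isomerase that follows it, 6.73, 21.6 and 21 CPM in the same groups. Fdps, which makes farnesyl diphosphate, averaged 1.44 CPM with saringosterol and 5.78 CPM with GW. It has near-identical copies in the genome, so its level is uncertain.

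The committed steps turn squalene into sterols. Fdft1, the squalene synthase, averaged 8.18 ± 1.32 CPM with saringosterol, 30.3 ± 4.12 CPM with GW and 27 ± 2.87 CPM with vehicle (log2 difference -1.89 ± 0.13, edgeR adjusted p = 8.1e-08). Sqle, the squalene epoxidase, stood at 15.5, 21.7 and 34.4 CPM with saringosterol, 87.4, 96.6 and 96.3 CPM with GW and 78.1 to 89 CPM with vehicle. Cyp51, which demethylates lanosterol (ENSMUSG00000001467; chromosome 5, 4081145 to 4104746), stood at 23.8, 34.5 and 44.7 CPM with saringosterol and 132, 130 and 140 CPM with GW (log2 difference -1.96 ± 0.21, edgeR adjusted p = 0.0023). Tm7sf2, a sterol reductase, averaged 5.58 ± 0.513 CPM with saringosterol, 18.6 ± 1.29 CPM with GW and 13.2 ± 1.7 CPM with vehicle (log2 difference -1.73 ± 0.12, edgeR adjusted p = 3.6e-08). The smallest difference of the list was that of the isomerase gene Ebp, at 45.7 CPM with saringosterol and 56.2 CPM with GW (-0.30 ± 0.06).

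Saringosterol replicate 3 was the highest of the 3 saringosterol libraries for all 20 genes and was still below every GW library. The letters CCAAT, the box bound by the factor NF-Y, were found on either strand in 14 of the 18 RefSeq promoters of these genes (77.78%), against 37.41% of all promoters. The share was 87.5% for MHC class I and antigen loading genes, none of which was called with all libraries, and 88.89% for endoplasmic reticulum genes, of which 1 was called. It was 85.71% for cell cycle genes, of which 23 of 24 tested were called higher. For MHC class II genes it was 80.0%, with all 7 called lower, and for scavenger receptors 80.0%, with 2 of 6 tested called lower. Whether the box goes with the calls was not tested.

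The genes of sterol uptake and SREBP regulation split. Of 9 tested members, 4 were lower with saringosterol than with GW (4.75% of all genes) and the other 5 were not called (median -0.06). Srebf2, which encodes the SREBP of cholesterol synthesis, stood at 69.3, 67.9 and 96.4 CPM with saringosterol, 152, 147 and 152 CPM with GW and 134 to 146 CPM with vehicle (log2 difference -0.95 ± 0.12, edgeR adjusted p = 0.0011). Insig1, which keeps SREBP in the endoplasmic reticulum, stood at 30.9, 31 and 48.3 CPM with saringosterol, 106, 114 and 112 CPM with GW and 54.2 to 68.2 CPM with vehicle (-1.59 ± 0.19, edgeR adjusted p = 0.0025). The sterol carrier gene Stard4 averaged 8.93, 24.6 and 19.1 CPM in the same groups. By contrast, Insig2 averaged 37.1 CPM with saringosterol and 36.7 CPM with GW, and Scap, the SREBP escort, 42.7 and 44.5 CPM. The genes that move cholesterol out of the lysosome (Npc1, Npc2) and the esterifying enzyme gene Soat1 were within 0.04 of 0 on the log2 scale.

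Fatty acid synthesis genes were lower with saringosterol than with GW. Of 12 tested members, 11 were lower with saringosterol (4.75% of all genes) and none was higher (4.57%), with a median of -0.64. Without saringosterol replicate 3, 11 were lower (5.02% of all genes) and the median was -0.71. Summed, they stood at 1716, 1723 and 2177 CPM in saringosterol BMDM, 3801, 3861 and 4147 CPM in GW BMDM and 1268 to 1400 CPM in vehicle BMDM. Set against vehicle, 3 were higher (5.53% of all genes) and 3 lower (5.12%) with saringosterol. With GW, 8 were higher (5.66% of all genes) and none lower (4.76%).

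Srebf1, the regulator of the group, was lower with saringosterol than with GW and higher than with vehicle. It stood at 151, 163 and 193 CPM with saringosterol, 414, 394 and 421 CPM with GW and 91.7, 88.6 and 98 CPM with vehicle (log2 difference from GW -1.28 ± 0.07, edgeR adjusted p = 1.3e-08). Its promoter and that of Fasn hold the LXR element shown above. Fasn, the fatty acid synthase, stood at 72.9, 84 and 131 CPM with saringosterol, 277, 295 and 314 CPM with GW and 58.6 to 77.2 CPM with vehicle (-1.62 ± 0.24, edgeR adjusted p = 0.0088). The saringosterol and vehicle libraries of Fasn overlapped, and that difference was not called (0.56, edgeR adjusted p = 0.21).

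The desaturase genes Fads2 and Scd1 had the largest differences of the list. Scd1, which makes monounsaturated fatty acids (ENSMUSG00000037071; chromosome 19, 44394455 to 44407879), stood at 59.7, 49.5 and 66.4 CPM with saringosterol, 377, 364 and 426 CPM with GW and 21.4, 15.4 and 21.6 CPM with vehicle. Saringosterol lay between the other groups (log2 difference from GW -2.73 ± 0.16, edgeR adjusted p = 6.6e-05; from vehicle 1.58, edgeR adjusted p = 0.0011). Fads2, a desaturase of polyunsaturated fatty acids (ENSMUSG00000024665; chromosome 19, 10062765 to 10101746), stood at 10.9, 12 and 18.3 CPM with saringosterol, 109, 90.9 and 105 CPM with GW and 28.2, 24 and 33.3 CPM with vehicle. Here saringosterol lay below vehicle as well (log2 difference from GW -2.88 ± 0.23, edgeR adjusted p = 0.00041; from vehicle -1.05, edgeR adjusted p = 0.029). Scd2 averaged 973 ± 187 CPM with saringosterol, 2209 ± 143 CPM with GW and 444 ± 35.3 CPM with vehicle. Scd1 and Scd2 are close relatives, and reads that fit both may have been split or dropped.

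Smaller differences ran through the remaining steps. Acaca, the carboxylase of the first step, averaged 21.3 CPM with saringosterol, 29.9 CPM with GW and 12.2 CPM with vehicle. The desaturase Fads1 averaged 135, 204 and 152 CPM (log2 difference from GW -0.60 ± 0.06) and the elongase Elovl5 151, 232 and 136 CPM (-0.62 ± 0.06), both at an edgeR adjusted p of 1.4e-06. Elovl1, another elongase, was the member not called, at 210 and 226 CPM with saringosterol and GW.

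**Figure D3:**
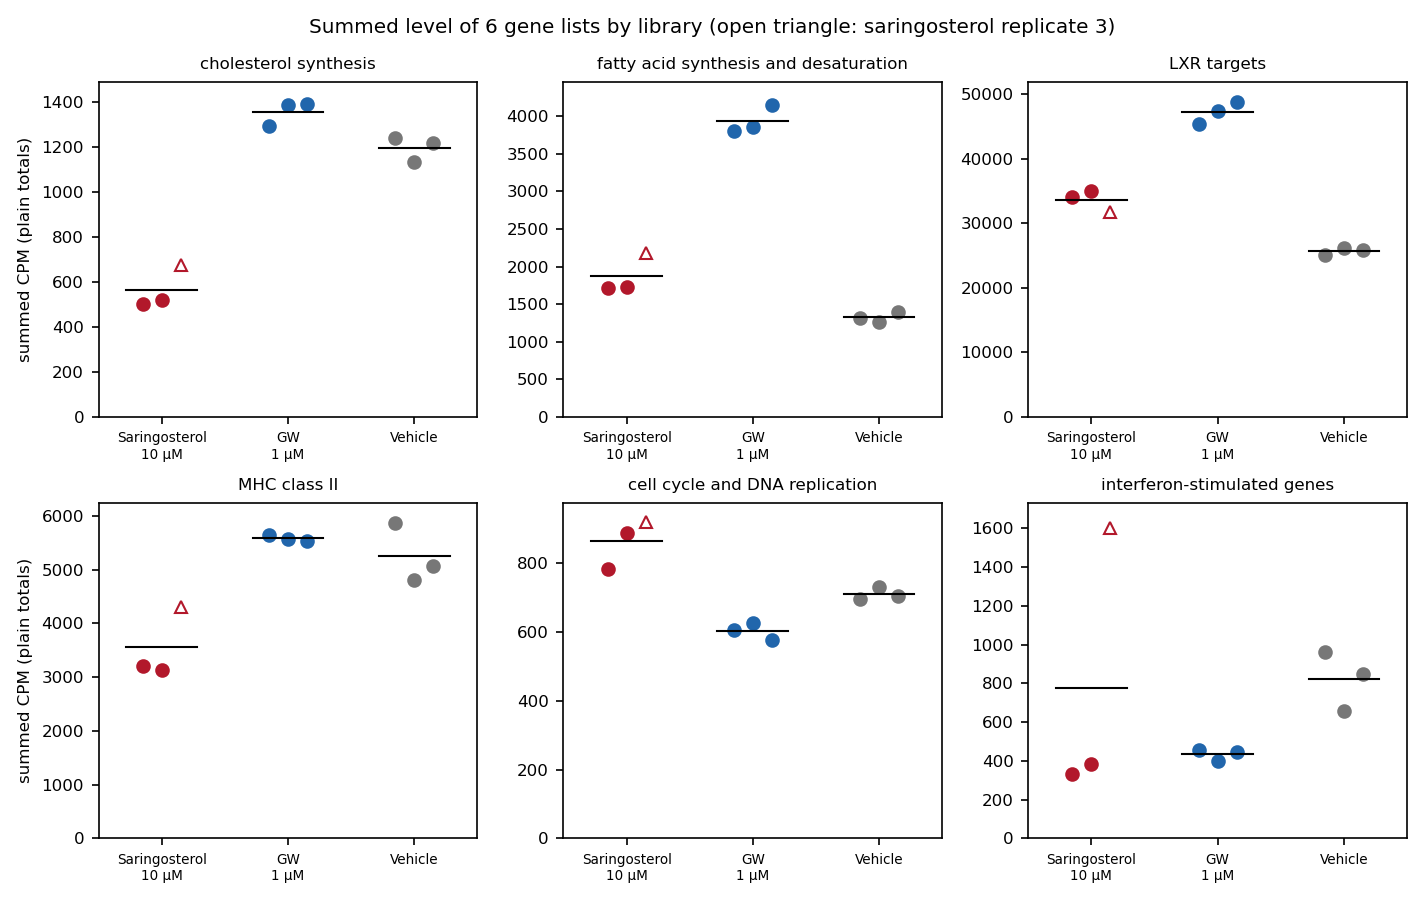
Summed CPM on plain library totals (vertical axis, from 0) of 6 gene lists in each library of saringosterol BMDM, GW BMDM and vehicle BMDM, with a bar at each mean and an open triangle for saringosterol replicate 3. The cholesterol synthesis sum is 503 to 676 with saringosterol and 1294 to 1390 with GW, and the interferon-stimulated sum is 1601 in saringosterol replicate 3 alone.

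Other lipid lists were read against the 4.57% of all genes called higher and the 4.75% called lower. In glycerolipid and phospholipid synthesis 4 of 15 members were lower (3 of 15 without saringosterol replicate 3). Lpin1, a phosphatidate phosphatase, stood at 42.8, 41.9 and 34.4 CPM with saringosterol, 76.1, 73.5 and 80.5 CPM with GW and 32.6 to 39.2 CPM with vehicle (-0.95 ± 0.09, edgeR adjusted p = 1.4e-06). Pcyt2, of phosphatidylethanolamine synthesis, averaged 24.2, 46.1 and 30.3 CPM in the same groups (-0.93 ± 0.10). In fatty acid oxidation and PPAR targets 3 of 11 members were lower, namely Angptl4, a lipase inhibitor, at 7.19 ± 1.8 CPM with saringosterol, 17 ± 0.741 CPM with GW and 10.5 ± 2.16 CPM with vehicle, and the carnitine shuttle genes Cpt1a and Slc25a20. The lipid droplet coat gene Plin2 averaged 1556 ± 75.9 CPM with saringosterol and 1737 ± 47 CPM with GW (-0.16 ± 0.06, edgeR adjusted p = 0.085; -0.20 and edgeR adjusted p = 0.021 without saringosterol replicate 3; DESeq2 adjusted p = 0.042).

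In the lipid droplet list, 2 of 8 members were higher with saringosterol and none was lower (2 higher and 2 lower without saringosterol replicate 3). Mgll, the monoglyceride lipase, stood at 170, 168 and 143 CPM with saringosterol, 130, 128 and 120 CPM with GW and 162 to 181 CPM with vehicle (0.35 ± 0.07, edgeR adjusted p = 0.0021). The coat gene Plin3 averaged 235 and 208 CPM with saringosterol and GW (0.18 ± 0.05, edgeR adjusted p = 0.038). Its call was lost without saringosterol replicate 1 (0.15), saringosterol replicate 2 (0.18), any of the 3 GW libraries (0.17 to 0.18) or vehicle replicate 2 (0.18). The call was also lost with only the 6 compared libraries in the fit and with no filter on low counts (0.18 each).

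Genes of MHC class II, which present peptides to helper T cells, were lower with saringosterol. All 7 members were tested and called lower (4.75% of all genes), with log2 differences from -0.88 to -0.60 and a median of -0.80. Without saringosterol replicate 3, 7 were called and the median was -0.91. Leaving out any 1 of the 9 libraries left 6 or 7 called. The saringosterol libraries lay below every GW and every vehicle library for all 7 genes. Over all genes tested, the saringosterol and GW libraries did not overlap for 27.4%, in either direction. H2-Ab1, a beta chain (ENSMUSG00000073421; chromosome 17, 34257689 to 34269419), stood at 494, 470 and 581 CPM with saringosterol, 908, 917 and 871 CPM with GW and 846, 717 and 796 CPM with vehicle (-0.80 ± 0.08, edgeR adjusted p = 2.4e-06). Ciita, the coactivator of these genes, averaged 40.1 ± 5.85 CPM with saringosterol, 73.6 ± 3.81 CPM with GW and 55.4 ± 2.9 CPM with vehicle (-0.88 ± 0.09). Cd74, the invariant chain, stood at 1917, 1877 and 2713 CPM with saringosterol and 3387, 3183 and 3289 CPM with GW (-0.60 ± 0.15, edgeR adjusted p = 0.046).

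Set against vehicle, 6 of the 7 were lower with saringosterol (5.12% of all genes) and 1, Ciita, was higher with GW (5.66% of all genes). Dendritic cell markers, another source of class II RNA, summed to 221 to 263 CPM with saringosterol, 204 to 222 CPM with GW and 288 to 361 CPM with vehicle, with none of the 3 tested called. Nearly all of that sum was Itgax, at 260, 260 and 217 CPM with saringosterol and 220, 203 and 226 CPM with GW. No other dendritic cell marker exceeded 1.07 CPM in these 6 libraries, so the sum is in effect the level of 1 gene. In bulk RNA, fewer cells of a type and less RNA per cell cannot be told apart. The T and NK cell list differed through Cd4, which some macrophages express, at 8.61, 8.82 and 10.3 CPM with saringosterol and 18.4, 19.6 and 21.1 CPM with GW. Its other members, Cd3e, Cd3d, Cd8a and Nkg7, did not exceed 0.146 CPM in these 6 libraries. The part of these cells in the class II result was not tested.

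Genes of the cell cycle and DNA replication were higher with saringosterol than with GW. Of 24 tested, 23 were called higher (4.57% of all genes) and none lower, with a median log2 difference of 0.72. Without saringosterol replicate 3, 22 were called and the median was 0.66. Leaving out any 1 of the 9 libraries gave 18 to 23 called. The 6 libraries did not overlap for any of the 24 genes, as was the case for 27.4% of all genes tested. The sum was 782, 888 and 920 CPM in saringosterol BMDM, 606, 626 and 576 CPM in GW BMDM and 695, 730 and 703 CPM in vehicle BMDM. Vehicle thus lay between the compounds, with 13 members higher for saringosterol against vehicle (5.53% of all genes) and 6 lower for GW against vehicle (4.76% of all genes).

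Among regulators of the early cycle, Ccnd1 (cyclin D1; ENSMUSG00000070348; chromosome 7, 144929931 to 144939925) stood at 22.7, 26.3 and 23.6 CPM with saringosterol, 12.3, 13 and 11.1 CPM with GW and 24.6, 20.3 and 20.6 CPM with vehicle. The GW libraries lay below the other 6, and the log2 difference between the compounds was 1.00 ± 0.10 (edgeR adjusted p = 2.7e-06). Replication genes followed, with the helicase subunit Mcm5 at 29.6 ± 5.99 CPM with saringosterol, 16.5 ± 1.63 CPM with GW and 20.4 ± 1.68 CPM with vehicle, and the ribonucleotide reductase Rrm2 at 27.9, 14.9 and 17.7 CPM. Plk1, a mitotic kinase, stood at 15.9, 18.4 and 23.1 CPM with saringosterol, 10.2, 9.98 and 7.86 CPM with GW and 11.5 to 13 CPM with vehicle (1.04 ± 0.13, edgeR adjusted p = 5.8e-05).

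Birc5 (survivin) averaged 26.9 ± 2.96 CPM with saringosterol, 14.8 ± 2.26 CPM with GW and 21.7 ± 1.52 CPM with vehicle (0.86 ± 0.11, edgeR adjusted p = 4.8e-05). Mki67, the marker of cycling cells, averaged 33.1, 21.6 and 28.2 CPM. Pcna, the sliding clamp, was the member not called, at 243 and 217 CPM (0.16 ± 0.06, edgeR adjusted p = 0.079).

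Interferon-stimulated genes were high in a single saringosterol library. By edgeR none of the 23 was called in either direction, and none had an unadjusted p under 0.05 or was called by DESeq2 (0 of 23 each), although all 23 log2 differences were positive, from 0.07 to 2.32, with a median of 0.72. Summed, they stood at 334, 386 and 1601 CPM in saringosterol replicates 1 to 3, 401 to 454 CPM in GW BMDM and 659 to 960 CPM in vehicle BMDM. Saringosterol replicate 3 was the highest saringosterol library for all 23 genes and also exceeded every vehicle library in the sum. Irf7, which amplifies interferon production (ENSMUSG00000025498; chromosome 7, 141262706 to 141266481), stood at 12.7, 16.6 and 185 CPM with saringosterol, 21, 17 and 22.9 CPM with GW and 28.5 to 51.9 CPM with vehicle. Its log2 difference was 1.82 ± 1.06 with all libraries (edgeR adjusted p = 0.39) and -0.47 without saringosterol replicate 3 (edgeR adjusted p = 0.49).

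Without that library the median of the list was -0.39. In that setting 4 of the 23 were lower with saringosterol than with GW (5.02% of all genes). They were Mx1 and Mx2, antiviral GTPases, at -1.37 and -1.01, the signalling gene Stat2 at -0.46 and Usp18, a brake on interferon signalling, at -0.87. Set against vehicle without that library, 22 of the 23 were lower with saringosterol, at a median of -1.47 (over all genes, 4.77% were called higher and 6.21% lower), while edgeR called none with all 3 libraries (1 lower at an unadjusted p under 0.05). With GW against vehicle, all libraries included, the 23 differences were all negative too, at a median of -0.85. Of these, 1 was called lower (4.76% of all genes). The Ifit, Oas and Mx genes are families with similar copies, and reads may be shared among them. The motif of GAAA repeated after 2 further bases, known from interferon-responsive promoters and searched on both strands, was in 10 of 17 promoters of the list (58.82%), against 3.44% of all promoters.

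**Figure D4:**
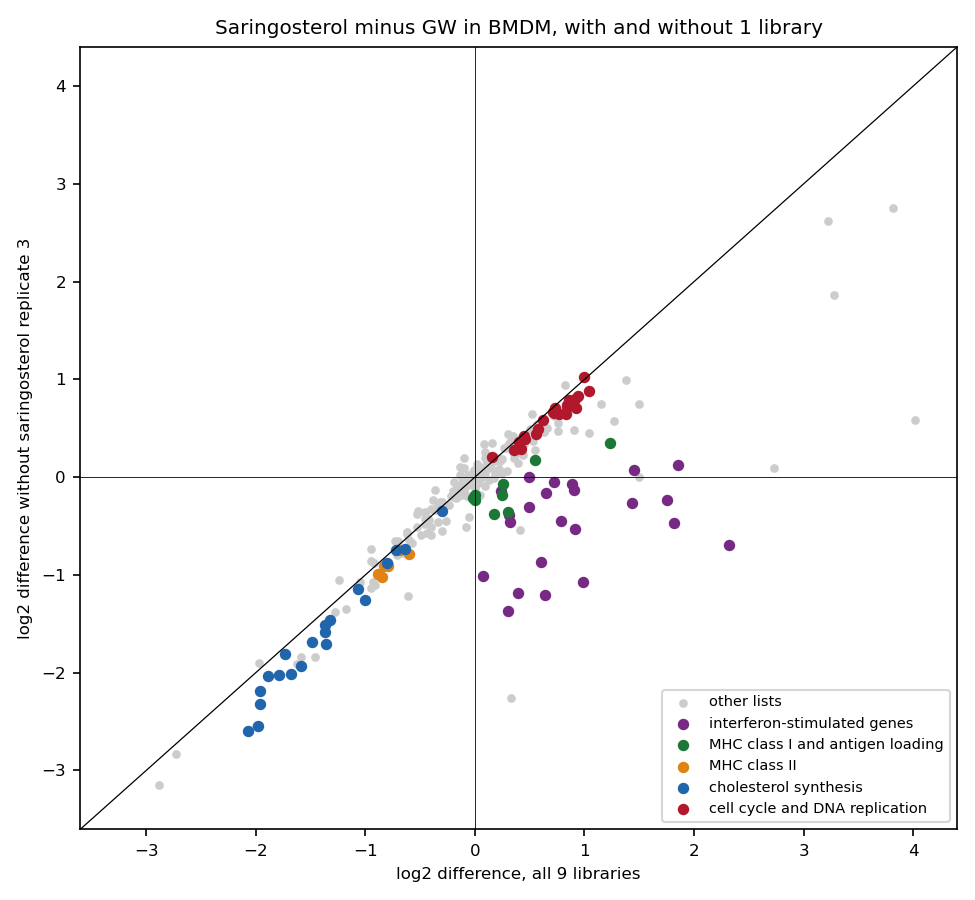
Log2 difference between saringosterol and GW in BMDM with all 9 libraries (horizontal axis) and without saringosterol replicate 3 (vertical axis), for members of the 23 lists. Cholesterol synthesis, MHC class II and cell cycle genes lie near the diagonal line of equal values, whereas interferon-stimulated genes fall below it.

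MHC class I genes, which present peptides made inside the cell, followed the same library. By edgeR none of the 9 was called with all libraries (median 0.25), with 0 at an unadjusted p under 0.05 and 0 by DESeq2. Saringosterol replicate 3 was the highest of its group for all 9. Without it 3 were lower with saringosterol than with GW (median -0.18), against 5.02% of all genes. Those were H2-K1 (-0.38), H2-D1 (-0.21) and the peptide transporter gene Tap1 (-0.36). The H2 genes are similar in sequence, so their separation is uncertain.

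Signs of some inflammatory genes depended on saringosterol replicate 3. Of 8 inflammatory genes tested, 2 were higher with saringosterol than with GW (4.57% of all genes) and none lower. Without saringosterol replicate 3 there were 4 higher (4.12% of all genes) and 1 lower (5.02%). With all libraries 7 log2 differences were positive and 1 negative (median 0.62), and without that library 4 and 4 (median 0.37). Tnf (ENSMUSG00000024401; chromosome 17, 35199381 to 35202007) stood at 10.7, 10.1 and 8.07 CPM with saringosterol, 5.33, 5.91 and 5.07 CPM with GW and 8.63, 10.3 and 8.98 CPM with vehicle (0.82 ± 0.14, edgeR adjusted p = 0.00066). The saringosterol and vehicle libraries overlapped, and GW lay below both. Ptgs2, the inducible prostaglandin synthase, was rare, with 14, 35 and 115 counts in the saringosterol libraries and 3, 4 and 4 counts in the GW libraries (edgeR adjusted p = 0.0031).

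The interleukin 1 genes were split by library. Il1b (ENSMUSG00000027398; chromosome 2, 129364570 to 129371139) stood at 0.31, 0.342 and 5.22 CPM with saringosterol, 1.47, 1.46 and 1.81 CPM with GW and 2.71, 2.22 and 1.51 CPM with vehicle. The log2 difference was 0.33 ± 1.03 (edgeR adjusted p = 0.9), and without saringosterol replicate 3 it was -2.26 (edgeR adjusted p = 0.00017). Il1a stood at 5.26, 6.43 and 11.9 CPM with saringosterol, 7.12, 8.83 and 8.99 CPM with GW and 0.38 to 1.43 CPM with vehicle. Its difference between the compounds was -0.08 ± 0.39 (edgeR adjusted p = 0.94) and took the opposite sign without saringosterol replicate 1 (0.14) or 2 (0.05). Both compounds stood above vehicle for Il1a (3.16, edgeR adjusted p = 0.0064 with saringosterol; 3.24, edgeR adjusted p = 0.0054 with GW). Il1rn, the antagonist of the interleukin 1 receptor, stood at 121, 120 and 238 CPM with saringosterol and 73.5, 73.7 and 68.7 CPM with GW (1.15 ± 0.28, edgeR adjusted p = 0.059), and was called without saringosterol replicate 3 (0.75, edgeR adjusted p = 9.6e-09).

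Of 14 chemokine genes tested, 2 were higher with saringosterol (4.57% of all genes) and none lower (4.75%). Ccl4 stood at 37.2, 30.4 and 46.1 CPM with saringosterol, 26.6, 24.9 and 22 CPM with GW and 14.5 to 20.2 CPM with vehicle (0.63 ± 0.16, edgeR adjusted p = 0.038). That call was lost without saringosterol replicate 1 (0.64), GW replicates 1 (0.69), 2 (0.64) or 3 (0.56), or vehicle replicate 2 (0.63). It was also lost with a replicate block in the fit (0.63). Ccl7 was rare, with 27, 40 and 95 counts in the saringosterol libraries and 7, 6 and 4 counts in the GW libraries (edgeR adjusted p = 0.00099). Without saringosterol replicate 3, Ccl6 (-0.41), Ccl9 (-0.19) and Cxcl10 (-1.22) were called lower (5.02% of all genes). Ccl5 stood at 1.61, 1.54 and 47.8 CPM with saringosterol and 1.42, 0.993 and 0.749 CPM with GW, and was not called (edgeR adjusted p = 0.23).

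Of 8 amino acid response genes, 5 were higher with saringosterol (4.57% of all genes) and none lower (4.75%). Without saringosterol replicate 3, 3 were higher (4.12% of all genes) and 1 lower (5.02%). Psat1, of serine synthesis, stood at 31.9, 39.8 and 36.5 CPM with saringosterol, 28.9, 23.1 and 24.7 CPM with GW and 33.5 to 35.6 CPM with vehicle (0.50 ± 0.09, edgeR adjusted p = 0.0014). Phgdh, the first enzyme of the same route, stood at 6.25, 6.67 and 12.5 CPM with saringosterol, 4.1, 3.33 and 2.33 CPM with GW and 1.58 to 2.8 CPM with vehicle (1.38 ± 0.31, edgeR adjusted p = 0.018). The Phgdh call was lost without GW replicate 2 (1.40) or 3 (1.19), and with only the 6 compared libraries in the fit (1.38). The pseudokinase gene Trib3 averaged 8.4 ± 1.98 CPM with saringosterol and 4.97 ± 1.21 CPM with GW (0.76 ± 0.19, edgeR adjusted p = 0.018), and lost its call without saringosterol replicate 3 (0.55) or GW replicate 2 (0.57). Asns, the asparagine synthetase, was called without saringosterol replicate 3 (0.47, edgeR adjusted p = 0.0013) and not with it (0.76, edgeR adjusted p = 0.073).

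Actin and immediate early genes showed small differences. In the actin list 3 of 9 members were higher with saringosterol (4.57% of all genes), namely Tagln2 and the tropomyosin genes Tpm1 and Tpm4. Tagln2 stood at 326, 313 and 309 CPM with saringosterol, 248, 247 and 235 CPM with GW and 297 to 329 CPM with vehicle. Its log2 difference was 0.38 ± 0.06 (edgeR adjusted p = 0.00018). In the immediate early list 3 of 12 were higher (4.57% of all genes) and 1 lower (4.75%). Without saringosterol replicate 3 there were 5 higher (4.12% of all genes) and 1 lower (5.02%). Fos stood at 62, 56.2 and 62.9 CPM with saringosterol, 42.2, 40.6 and 38.7 CPM with GW and 68.7 to 73.8 CPM with vehicle (0.57 ± 0.07, edgeR adjusted p = 1.3e-05). For Fos, Tagln2, Tpm1 and Tpm4 the GW libraries lay below the saringosterol and the vehicle libraries. Jun averaged 232 CPM with saringosterol, 185 CPM with GW and 186 CPM with vehicle, so that saringosterol stood apart.

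Genes of uptake and of alternative activation were mostly lower where they were called. Over all genes 4.75% were called lower. Without saringosterol replicate 3 the shares over all genes were 5.02% lower and 4.12% higher. Scarb1, the receptor for high-density lipoprotein, stood at 118, 118 and 141 CPM with saringosterol, 206, 196 and 217 CPM with GW and 154 to 176 CPM with vehicle (-0.71 ± 0.07, edgeR adjusted p = 4.4e-06), and Stab1 averaged 169, 226 and 212 CPM, making 2 of 6 scavenger receptors. Without saringosterol replicate 3, 2 scavenger receptors were lower and 1 was higher. Of 7 genes for the uptake of dying cells, 3 were lower. The integrin gene Itgb5 averaged 704 CPM with saringosterol, 867 CPM with GW and 842 CPM with vehicle (-0.30 ± 0.06), and the phosphatidylserine receptor Timd4 averaged 3.69 ± 0.164 CPM with saringosterol, 6.99 ± 0.816 CPM with GW and 2.67 ± 0.419 CPM with vehicle (-0.92 ± 0.17, edgeR adjusted p = 0.0011). Of 6 alternative activation genes, 2 lectins were lower (3 genes without saringosterol replicate 3). Clec10a averaged 13.5 ± 1.64, 23.2 ± 0.542 and 23.4 ± 0.709 CPM with saringosterol, GW and vehicle, and Mgl2 1.62 and 3.05 CPM with saringosterol and GW. The Mgl2 difference of -0.91 lost its call without GW replicate 2 (-0.82), GW replicate 3 (-0.84) or saringosterol replicate 2 (-0.75). The names of the lists cover genes with several roles, and no count here was tested as a set.

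Over all genes 9.33% were called in either direction. Of 11 glycolysis genes 3 were higher (Pfkp, Pgk1 and Ldha) and 1 lower (Pfkl). Of 13 lysosome genes 1 was higher, the protease gene Ctsl at 4313 ± 650 CPM with saringosterol and 3322 ± 78.8 CPM with GW, and 1 was lower, Hexa at 1701 and 1975 CPM. The Hexa difference of -0.22 was not called without GW replicate 1 or 3 (-0.20 each), saringosterol replicate 2 (-0.22) or vehicle replicate 2 (-0.22). Without saringosterol replicate 3, 2 glycolysis genes and 2 lysosome genes were higher, and 1 gene of each list was lower. Of 9 endoplasmic reticulum genes 1 was lower, Herpud1 at 38.2 and 55.3 CPM. None of the 10 NRF2 targets was called by edgeR with all libraries, 2 were lower at an unadjusted p under 0.05 and 1 was lower by DESeq2. Without saringosterol replicate 3 the peroxiredoxin gene Prdx1 was higher (0.23, edgeR adjusted p = 0.0087).

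The 5 largest differences in each direction, among called genes of at least 5 CPM whose libraries did not overlap, included list members and others. On the lower side, Fads2 and Scd1 were followed by Aldoc, an aldolase, at 3.87, 6.38 and 7.46 CPM with saringosterol, 29.3, 26.3 and 27.5 CPM with GW and 16.9 to 23.1 CPM with vehicle (-2.22 ± 0.21, edgeR adjusted p = 0.00019). The processed pseudogene Gm3571 stood at 3.16, 2.59 and 5.25 CPM with saringosterol and 16.6, 14.7 and 17 CPM with GW (-2.13 ± 0.21), and its reads may belong to a similar gene. Ighm, the immunoglobulin mu chain, stood at 67.9, 67.4 and 38.6 CPM with saringosterol, 243, 252 and 248 CPM with GW and 109 to 117 CPM with vehicle (-2.10 ± 0.21, edgeR adjusted p = 0.0018). The B cell markers summed to 3.35 to 3.5 CPM with saringosterol and 3.82 to 4.83 CPM with GW, with none called. Their part in the Ighm values was not tested.

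On the higher side were Phgdh, Uhrf1, Mastl and Tcf19, among others. Uhrf1, which maintains DNA methylation at replication, had 10.9, 13.9 and 17.8 CPM with saringosterol and 5.2, 5.93 and 5.69 CPM with GW (1.34 ± 0.15, edgeR adjusted p = 1.2e-05). Mastl, a mitotic kinase, differed by 1.33 ± 0.22 and Tcf19 by 1.27 ± 0.17.

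The same contrast was run in microglia, the macrophages of the brain, to ask whether these differences depended on the cell type. Microglia were treated in the same medium at the same doses, with 3 libraries a group. In a fit of 18 libraries the difference between saringosterol and GW itself differed between BMDM and microglia for 871 of 16965 genes (5.13%), 479 of them with a larger value in BMDM (2.82%) and 392 with a smaller one (2.31%). Without saringosterol BMDM replicate 3 there were 1114 (6.57%), 549 larger (3.24%) and 565 smaller (3.33%). In microglia 2985 genes were called between the compounds (17.6%), with 1361 higher (8.02%) and 1624 lower (9.57%) for saringosterol. That fit gives each gene 1 dispersion for both cell types.

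Cholesterol synthesis was lower with saringosterol in both cell types, and less so in BMDM. For 12 of 20 members the difference was less negative in BMDM (2.82% of all genes) and for none more so. The median difference of differences was 0.53. Without saringosterol BMDM replicate 3 the count was 9 of 20 (3.24% of all genes) and the median 0.40. Hmgcs1 averaged 128 and 268 CPM with saringosterol and GW in BMDM, and 44 ± 0.425 and 146 ± 13.1 CPM with saringosterol and GW in microglia (difference of differences 0.66 ± 0.09, edgeR adjusted p = 3.2e-05). Cyp51 averaged 29.9 and 234 CPM with saringosterol and GW in microglia, and gave 1.02 ± 0.22. Of 14 tested LXR targets, the difference of differences was called positive for 4 and negative for 1 (2.82% and 2.31% of all genes). Without saringosterol BMDM replicate 3 it was called positive for 8 and negative for 1 (3.24% and 3.33% of all genes). For Abca1 it was 0.00 ± 0.08 and for Srebf1 0.01 ± 0.09, and neither was called.

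Cell cycle genes were mostly higher with saringosterol in both cell types. In BMDM 23 of 24 were called higher (4.57% of all genes), and in microglia 22 (8.02%). For 11 of 24 the difference was smaller in BMDM (2.31% of all genes) and for 2 it was larger (2.82%). Without saringosterol BMDM replicate 3 these counts were 16 (3.33% of all genes) and 2 (3.24%). Ccnd1 was one of those with the larger value in BMDM. It averaged 24.2 and 12.1 CPM with saringosterol and GW in BMDM, and 118 ± 5.53 and 117 ± 1.68 CPM with saringosterol and GW in microglia, a difference of differences of 0.99 ± 0.10 (edgeR adjusted p = 2.5e-07). The mitotic checkpoint gene Bub1b averaged 16.4 and 9.88 CPM with saringosterol and GW in BMDM, and 9.47 and 2.81 CPM with saringosterol and GW in microglia (-1.03 ± 0.18, edgeR adjusted p = 0.00042).

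For MHC class II genes the cell types differed. For 5 of 7 the difference was more negative in BMDM (median -0.58), against 2.31% of all genes. Without saringosterol BMDM replicate 3 the count was 7 of 7 (3.33% of all genes). In microglia 1 of 7 was called lower (9.57% of all genes). H2-Ab1 averaged 515 and 899 CPM with saringosterol and GW in BMDM, and 24.9 ± 2.06 and 28 ± 0.958 CPM with saringosterol and GW in microglia (-0.63 ± 0.12, edgeR adjusted p = 0.0026). The class II level was thus far lower in microglia, and Ciita averaged 1.43 and 1.49 CPM with saringosterol and GW there.

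**Figure D5:**
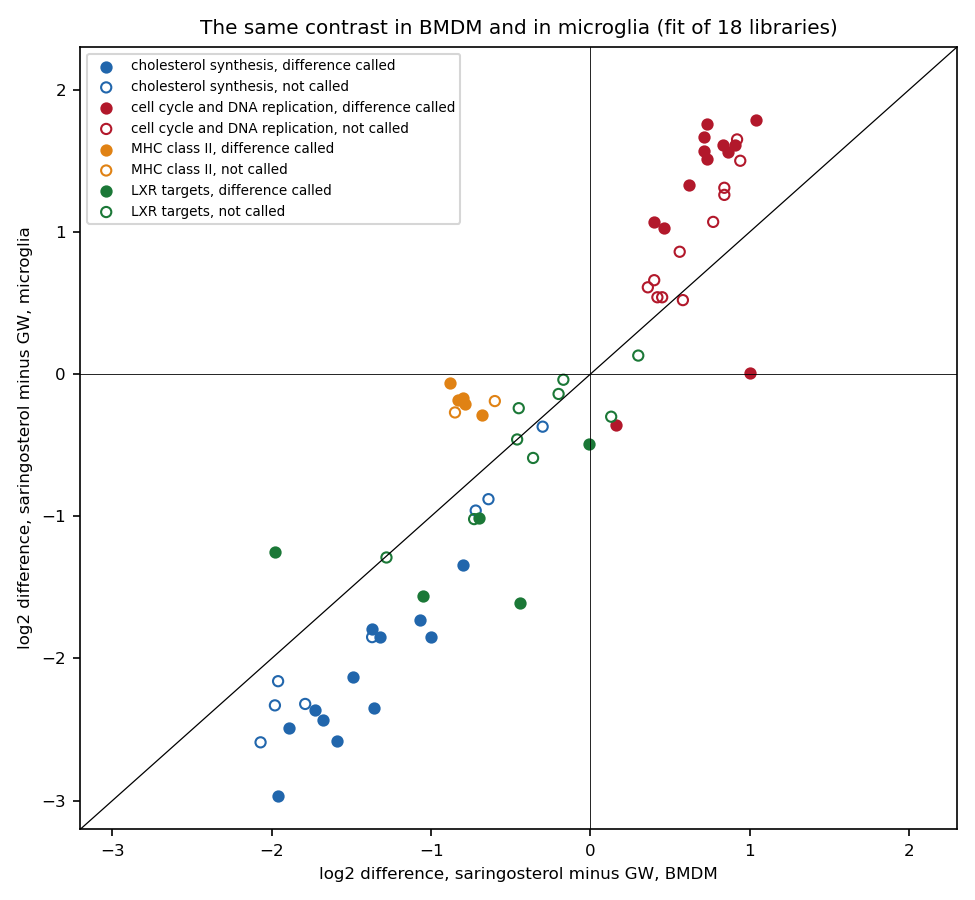
Log2 difference between saringosterol and GW in BMDM (horizontal axis) and in microglia (vertical axis) for members of 4 gene lists, with filled points where the 2 differences were called different at an edgeR adjusted p under 0.05. Cholesterol synthesis genes lie below the line of equal values, MHC class II genes near 0 on the microglia axis, and Ccnd1 at 1.00 in BMDM and 0.01 in microglia.

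The 5 genes with the smallest adjusted p in that comparison were Plin2, Txnip, Aldh9a1, Sgk1 and Arrdc4. Plin2 averaged 1556 and 1737 CPM with saringosterol and GW in BMDM, and 993 ± 20.1 and 2870 ± 33.7 CPM with saringosterol and GW in microglia (1.37 ± 0.06, edgeR adjusted p = 4.1e-15). Txnip, which restrains glucose uptake, averaged 275 and 408 CPM with saringosterol and GW in BMDM, and 254 and 177 CPM with saringosterol and GW in microglia (-1.09 ± 0.07). Its relative Arrdc4 moved the same way (-1.15 ± 0.11), as did the kinase gene Sgk1 (-0.79 ± 0.07), while the dehydrogenase gene Aldh9a1 gave 0.77 ± 0.07. Among them Txnip and Arrdc4 were lower with saringosterol in BMDM and higher in microglia.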

How the data were processed

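Per the labels' protocols, RNA was made into libraries with an oligo-dT low-input kit. Per the submitters' processing notes, the authors used bcl2fastq, STAR 2.5.1a and featureCounts 1.4.6-p5 (Subread) with GRCm38. The annotation release, strand setting and treatment of multi-mapping reads were not found among those sources. The authors deposited raw counts per gene, which were used for every test, together with CPM, FPKM and TPM, where the deposited CPM, FPKM and TPM were not used for any result. The deposited counts of the series table and of the library files were the same (0 differing). Of 55774 lines, repeated lines of 168 gene IDs were identical and were merged, leaving 55487 genes.

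Genes were filtered with filterByExpr, scaled by TMM and tested with the quasi-likelihood test of edgeR 4.0.16 (robust, R 4.3.3) on the 9 BMDM libraries, with Benjamini-Hochberg adjustment over all 15416 genes kept. Calls were made below an adjusted p of 0.05. Values after ± are SD for CPM and SE for log2 differences. CPM of single genes were computed on TMM-scaled library sizes, with scaling over 9 libraries for BMDM values and over 18 for microglia values. Sums over lists were computed on plain totals. The difference of differences was fitted on 18 BMDM and microglia libraries, with 16965 genes kept. The fits were tested on simulated data. Alternatives were DESeq2 1.42.0, RLE size factors, no filter, other sets of libraries, a replicate block and leaving out each library in turn.

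The gene lists (23 pathway lists of 283 genes, and markers of other cells) were chosen with earlier results of these data known. Named genes were a fixed set of LXR, SREBP and cytokine genes, the 2 called members of each list with the smallest adjusted p, the 5 largest differences in each direction among called genes of at least 5 CPM without overlap, and the 5 smallest adjusted p-values of the difference of differences. Other members are named as description. Promoters from RefSeq (GRCm38.p6) were matched by symbol for 222 of the 283 list genes. Libraries were grouped by their labels, and hepatocyte libraries were not used apart from an alternative fit. Results of some genes are not reported here.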

Additional observations from a re-analysis of the deposited data

Results flagged for a closer look

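The differences between saringosterol and GW in BMDM and in microglia were compared by a difference of differences (BMDM minus microglia, edgeR), which was called for 871 genes. Among genes named above it was positive for the lipid genes Apoe (0.31), Lpcat3 (0.51), Hmgcs1 (0.66), Tm7sf2 (0.63), Cyp51 (1.02), Insig1 (0.84), Fads1 (0.28), Fads2 (1.16) and Elovl5 (0.27), for the droplet coat gene Plin2 (1.37) and for Angptl4 (1.50), Cpt1a (0.72) and Aldh9a1 (0.77), all of which had lower means with saringosterol than with GW in both cell types. Without saringosterol BMDM replicate 3, Tm7sf2 gave 0.55 and was no longer called. In CPM, Fads2 averaged 13.7 with saringosterol and 102 with GW in BMDM, and 10.4 with saringosterol and 171 with GW in microglia. Angptl4 averaged 7.19 with saringosterol and 17 with GW in BMDM, and 1.79 with saringosterol and 12 with GW in microglia.

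It was also positive for the cyclin gene Ccnd1 (0.99), for Fos (0.45), and for the serine synthesis genes Psat1 (0.62) and Phgdh (1.99). Phgdh averaged 8.46 CPM with saringosterol and 3.25 CPM with GW in BMDM, and 26.7 CPM with saringosterol and 40.5 CPM with GW in microglia. The largest value belonged to Ighm (4.98), at 58 CPM with saringosterol and 248 CPM with GW in BMDM, and 0.209 ± 0.239 CPM with saringosterol and 27.9 ± 3.43 CPM with GW in microglia, where the saringosterol level is near the floor of the count.

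It was negative for the class II genes H2-DMa (-0.40) and H2-Ab1 (-0.63), for Birc5 (-0.70), for the lipase gene Mgll (-0.62) and for Txnip (-1.09), Arrdc4 (-1.15) and Sgk1 (-0.79). Mgll was higher with saringosterol in both cell types, at 160 CPM with saringosterol and 126 CPM with GW in BMDM, and 105 CPM with saringosterol and 53.6 CPM with GW in microglia.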

How the results depend on the processing

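Leaving out any 1 of the 9 libraries gave 903 to 1490 called genes between saringosterol and GW (403 to 720 higher, 500 to 774 lower), the fewest without GW replicate 3 and, for higher genes, 468 without GW replicate 1. It gave 9 to 10 LXR targets lower, 20 to 20 cholesterol and 11 to 11 fatty acid genes lower, 6 to 7 class II genes lower, 18 to 23 cell cycle genes higher, 1 to 3 chemokines and 2 to 4 inflammatory genes higher, and 0 to 4 interferon-stimulated genes lower, the 4 without saringosterol replicate 3. GW against vehicle, whose own libraries were untouched, had 2509 called genes (1242 higher, 1267 lower) without saringosterol replicate 3, against 1606 with it, since all groups share 1 estimate of the spread. DESeq2 called 1779 genes (11.5%), 5 chemokines and 4 inflammatory genes higher. No filter on low counts gave 4 chemokines higher. A fit of only the 6 compared libraries called 1240 genes. Replicate numbers shared only a number (same-number correlations of deviations from -0.07 to 0.04). A replicate block moved the calls to 751 higher and 764 lower, left 1 chemokine higher and gave Il1b -0.18. With 1 library left out, Il1b ranged from -2.26 (without saringosterol replicate 3) to 0.84, and Il1a from -0.51 to 0.14 (0.05 without saringosterol replicate 2). The cause was not tested. Of 893 values of named genes under alternatives, 852 kept direction and side of the threshold, 34 lost a call, 3 gained one and 4 changed sign. At these depths a gene under 0.0734 to 0.0932 CPM cannot be told from 0.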

Other observations

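Markers of other cells were summed per library. Neutrophil markers stood at 47.6 to 60 CPM with saringosterol and 37.4 to 46 CPM with GW, and osteoclast markers at 226 to 237 CPM with saringosterol and 191 to 212 CPM with GW. Neither pair of ranges overlapped, no member was called with all libraries, and without saringosterol replicate 3 the osteoclast marker Dcstamp was higher with saringosterol (0.35, edgeR adjusted p = 0.014). Their part in the results was not tested. Megakaryocyte markers summed to 51.1 to 60.5 CPM with saringosterol and 50.2 to 55.1 CPM with GW, and mast cell markers to 0.465 to 1.43 CPM with saringosterol and 1.09 to 1.54 CPM with GW, with no member called. Erythroid markers did not exceed 1 CPM in sum. Of the endothelial markers, Kdr stood at 1.46, 1.39 and 4.01 CPM with saringosterol and 0.604, 0.521 and 0.491 CPM with GW (2.09, edgeR adjusted p = 0.0032). The other endothelial markers had lower means with saringosterol than with GW. Pecam1 averaged 0.411 and 0.574 CPM with saringosterol and GW and was not called. Cdh5 averaged 0.0206 and 0.0858 CPM and Tek 0 and 0.0503 CPM, and neither was tested.

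Csf1r, the receptor for the growth factor in the medium, stood at 1618, 1526 and 1550 CPM with saringosterol and 2072, 1835 and 2138 CPM with GW (-0.36, edgeR adjusted p = 0.0022). Its 6 libraries did not overlap.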
